A study of Mus musculus with 13 samples.

Results

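The splicing events described here are the rows of a table of cerebellar splicing in which every Sam68 knockout library lay on one side of every wild-type library. An event entered if it added sequence to the transcript, had at least 10 reads in all 10 libraries from postnatal days 1 and 10 (P1 and P10), and had all 6 knockout values above, or all below, all 4 wild-type values. The 2 means also had to differ by at least 5 points of percent inclusion (PSI, the share of a gene's transcripts at that site that hold the exon, the intron or the longer form of an exon). Of 283765 rows, 169847 met the read filter, and 352 of these (0.207%) met the whole rule. Among so many rows some can meet it without an effect of genotype, and how many did so was not tested. Inclusion was higher in knockout in 232 events (0.137% of the rows) and lower in 120 (0.0707%), and the events fell in 315 genes. The rule drops an interval of chromosome 4, the chromosome that carries Khdrbs1 in the mouse, which took out 26 rows that met its other terms. Because the events were chosen by the knockout and wild-type PSI values at P1 and P10, the differences between genotypes at those days are given as a description, and "rose" and "fell" are used there for events that met the rule, not for a passed test.

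The libraries came from total RNA of mouse cerebella of the C57BL/6 background, prepared with a modified Illumina TruSeq Stranded mRNA kit. The wild-type groups were P1 (2 libraries, numbered 8 and 9 in the labels), P10 (libraries 5 and 6) and P30 (libraries 1, 2 and 3). The Sam68 ko groups were P1 (libraries 13, 14 and 15) and P10 (libraries 10, 11 and 12), with no knockout at P30 among the samples. The labels give neither the allele nor the sex, nor how many mice went into a library, so p-values measure only the spread between these libraries, which may be technical.

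Sam68, the product of Khdrbs1, is a STAR family RNA-binding protein. It binds short A- and U-rich stretches such as UAAA in pre-mRNA and can promote or block the use of a nearby exon, depending on where it binds. In neurons it regulates exons of synaptic genes, and in the testis exons used in male germ cells. Khdrbs1 expression, in cRPKM (reads scaled to mappable transcript length and library size), was 56.5 and 74.4 for wild type at P1, with knockout at 5.42, 4.22 and 8.5. At P10 wild type had 61.2 and 56.2, with knockout at 2.06, 1.28 and 3.59, and the 3 wild-type P30 libraries held 31.4, 29.5 and 36.8. Knockout libraries were thus far below wild type at both days, with no overlap. Reads over all exon events summed to between 10.5 and 18.4 M per library, and the median event of the set had from 64.0 reads (wild-type P1 library 8) to 124.5 reads (wild-type P10 library 6). Wild-type P10 library 6 bordered the gap between the genotypes in 110 of the 352 events and knockout P10 library 10 in 88, more than any other library of their genotype. In the expression table knockout P1 library 15 listed 48 of the 306 tested genes of the set at 0, against 0 to 20 in the other libraries.

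Among summed marker levels, several lists differed between genotypes without overlap, while the other cell type lists overlapped at the day in question. With 3 knockout and 2 wild-type libraries at a day, sums can separate in this way without an effect of genotype. At P1 the knockout libraries were lower for midbrain and caudal hindbrain (15.5 to 31.9 cRPKM against 37.7 and 53.9, with 1 of 10 genes at 0 in every library). They were also lower for Bergmann glia and astrocytes (8 genes, 1082 to 1526 against 1618 and 2149), oligodendrocytes (8 genes, 84.5 to 119 against 154 and 170) and red blood cells (5 genes, 32.5 to 458 against 545 and 548). At P10 they were higher for microglia (6 genes, 88.8 to 96.5 against 68.8 and 81.7) and choroid plexus (5 genes, 282 to 659 against 1.80 and 276). The choroid plexus sum ran from 4.69 to 1118 among the wild-type P30 libraries. Fewer cells of a type and less RNA per cell cannot be told apart in these libraries. Granule cell, Purkinje cell and granule cell precursor lists, which mark cerebellum, were present in all libraries and overlapped between genotypes at both days. The part of cell makeup in the splicing differences was not tested.

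The sequences of 9 exons are shown because the description turns on them. The letters are from GENCODE M21 transcripts (GRCm38), matched to the rows by gene, exon length and the length of the flanking introns. The positions are those of the deposited table (mm9), and each exon is written in the sense of its transcript. Capitals mark TAAA, the DNA spelling of UAAA.

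Sgce 27 nt exon, chr6:4640469-4640495: ggaaaagagagacatgcaaaccccaga
Epc2 192 nt exon, chr2:49387564-49387755: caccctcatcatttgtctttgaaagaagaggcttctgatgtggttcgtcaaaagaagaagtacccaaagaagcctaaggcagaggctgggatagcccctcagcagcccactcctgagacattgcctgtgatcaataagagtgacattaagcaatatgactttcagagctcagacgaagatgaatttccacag
Kif21a 108 nt exon, chr15:90783142-90783249: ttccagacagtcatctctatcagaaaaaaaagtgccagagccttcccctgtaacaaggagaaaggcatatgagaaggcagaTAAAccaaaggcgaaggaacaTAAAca
Kif21a 39 nt exon, chr15:90806902-90806940: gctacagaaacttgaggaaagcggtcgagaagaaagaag
Stxbp5l 171 nt exon, chr16:37142362-37142532: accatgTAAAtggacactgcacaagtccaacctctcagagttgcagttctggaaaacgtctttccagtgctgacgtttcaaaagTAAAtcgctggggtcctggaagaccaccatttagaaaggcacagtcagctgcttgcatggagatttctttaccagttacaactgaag
Hfm1 152 nt exon, chr5:107331941-107332092: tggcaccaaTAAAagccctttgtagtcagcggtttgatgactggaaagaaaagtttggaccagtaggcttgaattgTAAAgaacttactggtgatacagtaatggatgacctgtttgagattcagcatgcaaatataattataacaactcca
Zfp711 135 nt exon, chrX:109740779-109740913: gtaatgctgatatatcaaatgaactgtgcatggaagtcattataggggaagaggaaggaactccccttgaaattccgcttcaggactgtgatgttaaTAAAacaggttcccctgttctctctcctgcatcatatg
Cadps 12 nt exon, chr14:13350318-13350329: ctggactgaagg
Ahi1 27 nt exon, chr10:20727558-20727584: gaggtgatacgatcctgtgctgcaaaa

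The 27 nt exon of Sgce, which codes for epsilon-sarcoglycan, a membrane protein whose loss causes myoclonus dystonia, roughly doubled its inclusion. Wild type had 44.2 and 41.4% at P1 and 33.9 and 31.1% at P10. Knockout had 74.2, 81.4 and 76.0% at P1 and 72.1, 74.9 and 80.04% at P10. All 6 knockout libraries lay at least 27.9 points above the highest wild-type library. The difference was 34.4 points at P1 (42.8% ± 2.01, SD, n = 2, to 77.2% ± 3.73, n = 3) and 43.2 points at P10 (32.5% ± 2.02 to 75.7% ± 4.03). At P30 the wild type had 54.6, 44.8 and 43.6%, on the wild-type side of the gap and partly above the earlier wild-type values. The printed exon holds no TAAA.

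A 192 nt exon of Epc2, an enhancer of polycomb protein of histone acetyltransferase complexes, showed the same pattern. Wild type had 47.4 and 54.3% at P1 and 37.8 and 45.6% at P10. Knockout had 77.9, 91.8 and 89.6% at P1 and 81.3, 87.8 and 93.7% at P10. The groups were separated by 23.6 points. At P30, 45.8, 44.5 and 38.0% put the wild type back within its own earlier range.

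Kif21a, a kinesin motor found in axons and dendrites, held 2 exons of the set that moved in opposite directions. Its 108 nt exon, which has 2 TAAA near its end, was at 77.3 and 65.6% for wild type at P1, with knockout at 95.5, 94.4 and 94.95%. At P10 wild type had 56.2 and 73.2%, with knockout at 90.1, 94.5 and 94.3%. Wild type at P30 had 48.0, 51.9 and 50.1%, below every earlier library and further from knockout. Its 39 nt exon, with no TAAA, was at 46.1 and 44.2% for wild type at P1, with knockout at 27.5, 25.9 and 21.4%. At P10 wild type had 43.01 and 33.6%, with knockout at 21.7, 18.6 and 15.3%. Here the P30 wild type, at 28.1, 26.3 and 26.6%, lay nearer to knockout. Both exons have lengths that are multiples of 3 and both fell in mean inclusion with age in wild type, by 14.7 and 11.3 points from P10 to P30 (limma adjusted p = 0.490 and 0.419). The same direction with age was thus away from the knockout for one exon and toward it for the other, and neither change passed the test.

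**Figure D1:**
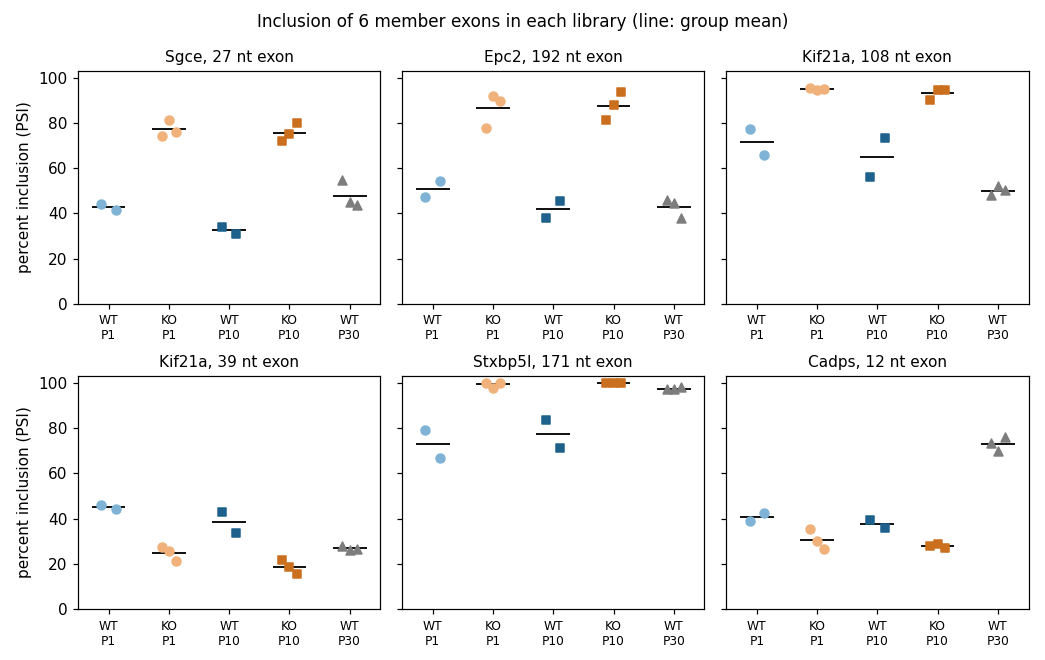
Percent inclusion (PSI, vertical axis) of 6 exons in each library by group, with points for libraries and lines for group means; WT is wild type and KO is Sam68 knockout. In every panel no knockout point at P1 or P10 overlaps the wild-type points of those days, though for Cadps the nearest lie 0.22 points apart, while the P30 wild type lies near wild type for Sgce and Epc2, near knockout for Stxbp5l, and on the far side of wild type from knockout for Cadps.

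Stxbp5l codes for a tomosyn, which restrains synaptic vesicle priming. Its 171 nt exon had 79.3 and 66.7% in wild type at P1 and 83.5 and 71.2% at P10, and 97.9 to 100% in the 6 knockout libraries. The lowest knockout library lay 14.4 points above the highest wild-type library. A 135 nt exon of Zfp711, an X-linked zinc finger gene, had 9.82, 11.7, 9.02 and 10.5% in the 4 wild-type libraries and 28.5 to 40% in knockout.

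The largest rises spanned introns and exons of genes with unlike roles. An intron of Zkscan2, a zinc finger gene, rose by 48.9 points, and a 132 nt exon of 1110028C15Rik (Kansl1l in GENCODE) by 48.7. After Epc2 (40.7) and Sgce (38.8) came a 250 nt exon of the cell cycle regulator Spdya (37.8), the intron around the 1110028C15Rik exon (37.5) and a 152 nt exon of the meiotic helicase gene Hfm1 (36.3). An intron of Tatdn1, a putative nuclease gene, rose by 34.1 points and a 115 nt exon of Vps24, an ESCRT-III subunit, by 33.3. In Spdya the P1 knockout values of 25.4, 38.8 and 50.7% and the P10 values of 73.6, 58.4 and 58.1% did not overlap, but its rows had as few as 13 reads. Hfm1 had wild-type P10 values of 34.6 and 74.1% at no fewer than 27 reads, so its groups were separated by 3.71 points despite the large mean difference.

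The 10 largest falls were smaller and mostly introns. The intron of Inca1, a kinase inhibitor gene, fell by 29.6 points, the longer 5′ site of Fam60a, a Sin3 complex subunit, by 27.3, and introns of the arginine methyltransferase gene Prmt3 by 23.0 and of Hps3, which serves lysosome-related organelles, by 22.8. Introns of the transcription factor gene Sp2 and of Abhd14a and Nagpa, which codes for a lysosomal targeting enzyme, fell by 22.4, 20.6 and 20.4 points. The Sp2 value is not borne out by its listed reads, 3 over the borders and 100 over the joined exons in knockout and 8 and 82 in wild type, which give means of 1.60 and 4.83%, a difference of -3.23 points. The 39 nt exon of Kif21a, a 106 nt exon of Wdr17 and an intron of Mitd1, which acts in cell abscission, fell by 19.99, 19.6 and 19.1. Inca1 and Fam60a had 10 reads in their poorest library, and Sp2 had 14. Intron events in general had fewer reads, with a median lowest library of 29.1 reads against 84.0 for exons.

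**Figure D2:**
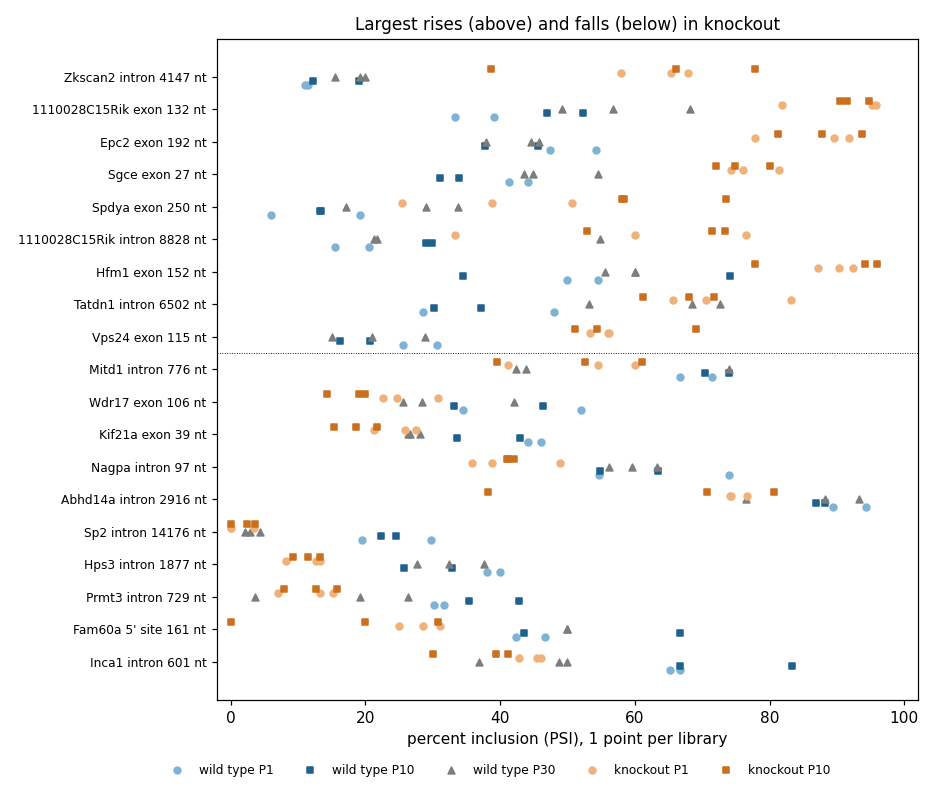
Percent inclusion (horizontal axis) of 9 of the 10 events with the largest rise and the 10 with the largest fall in knockout, 1 row per event and 1 point per library, coloured by genotype and day. The knockout points lie to the right of the P1 and P10 wild-type points above the dotted line and to the left below it, while P30 points lie on either side.

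Across the 352 events the median absolute difference was 10.3 points, and 191 events differed by 10 points or more and 48 by 20 or more (41 rises and 7 falls). The gap between the nearest knockout and wild-type libraries was narrow, with a median of 1.93 points and under 1 point in 99 events. In 80 events the poorest library had fewer than 20 reads. Just inside the 5 point limit were exons of Zfp809, Zmym5, Hsf2, Casc4 and Ubxn2a, with differences of 5.03, 5.04, 5.07, -5.08 and 5.11 points. Just outside were an intron of Cacna2d1, an intron of Dcaf15, a 3′ site of Gon4l, an exon of Sirt1 and an intron of Fam96b, with differences of 4.997, 4.971, 4.969, 4.967 and -4.91 points.

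Skipped or included exons made up more of the set than of the table. There were 187 exons (53.1%), against 24.3% of all rows that met the read filter and 30.4% of the 34467 rows with a mean PSI of 5 to 95, of which 0.949% met the rule. There were 137 introns (38.9%, against 54.8% of rows with a mean PSI of 5 to 95), 13 alternative 3′ sites (3.69%, against 8.04%) and 15 alternative 5′ sites (4.26%, against 6.75%). Rises were mostly exons, 146 of 232 (62.9%). Falls were 52.5% introns (63 of 120) and 34.2% exons, near the 54.8% and 30.4% of rows with a mean PSI of 5 to 95. The larger share of exons thus lay mainly among the rises. Counting each gene once left 162 exons among 315. Exons had a median length of 108 nt, near the 105 nt of exons with a mean PSI of 5 to 95, and 47.6% had a length that is a multiple of 3, against 45.4%.

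Exons of 27 nt or less numbered 7 of 187 (3.74%, against 4.70% of exons with a mean PSI of 5 to 95), 5 higher and 2 lower. Besides Sgce, the 18 nt exon of the glycerol kinase gene Gyk rose by 12.8 points and the 9 nt exon of Myo6, a myosin that walks toward the minus end of actin, by 8.002. A 24 nt exon of Gon4l, a nuclear regulator, rose by 18.7. One of the same length in 5830417I10Rik, annotated in GENCODE as an unprocessed pseudogene on the same chromosome, rose by 17.7, and whether reads of the 2 exons can be separated was not tested. The 27 nt exon of Ahi1, a ciliary gene, fell from 82.4, 87.7, 83.2 and 87.4% to between 69.0 and 75.8%. The 12 nt exon of Cadps, which primes dense-core vesicles for release, fell from 38.8, 42.6, 39.2 and 35.7% to between 26.6 and 35.4%, a separation of 0.22 points.

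The letters TAAA were counted in the exons, with no test, and their share was higher among those that rose. A sequence was found for 159 of the 187 exons (85.0%). TAAA occurred in 61 of 120 exons higher in knockout (50.8%) and in 10 of 39 lower in knockout (25.6%), against 26.7% of exons with a mean PSI of 5 to 95 and 27.99% of all exons. Among exons within 10% of the same lengths the mean share was 27.4% for the rises and 28.3% for the falls. With coding exons only, 50.0% of rises held it, against 25.1% of those with a mean PSI of 5 to 95, and with 1 exon per gene 50.0% against 27.03%. TTAA, which overlaps TAAA in TTAAA, occurred in 41.7% of rises, 15.4% of falls and 23.3% of exons with a mean PSI of 5 to 95. TTTAAA, which holds both, occurred in 6.67%, 0% and 3.18%. Rises were also richer in A and T as a whole, with a median of 57.4% against 46.2% in falls and 49.8% in exons with a mean PSI of 5 to 95. The search was on the transcript strand only and within the exon, and the flanking introns were not searched. The TAAA share was not compared at matched base composition, and a match does not show binding.

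**Figure D3:**
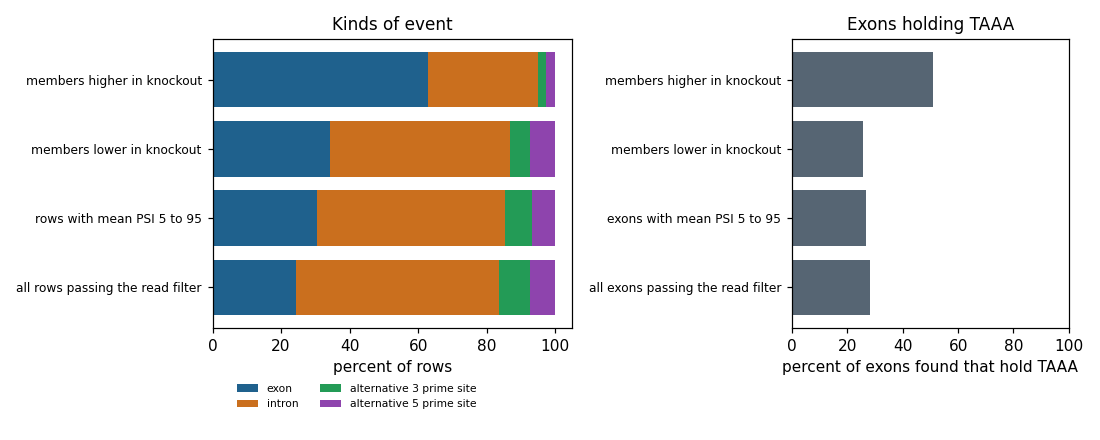
Left, the share of rows (percent, horizontal axis) of each kind of event among events higher in knockout, lower in knockout, rows with a mean PSI of 5 to 95 and all rows that met the read filter; right, the share of exons with a sequence found that held TAAA. Exons reach 62.9% of the rises and 34.2% of the falls, and TAAA is held by 50.8% and 25.6% of their exons.

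Introns that rose included long ones. Of the 74 introns higher in knockout, 21 (28.4%) were longer than 5000 nt, against 5 of 63 (7.94%) of those lower in knockout and 9.33% of introns with a mean PSI of 5 to 95. The longest, in Ralyl, an RNA-binding protein gene, spans 262610 nt. An exon row of the same gene lay inside 17 of the 74 introns that rose (23.0%) and 4 of the 63 that fell (6.35%), against 10.9% of introns with a mean PSI of 5 to 95. Among introns longer than 5000 nt that share was 38.5% in the set, against 32.9%. In 2 introns, among them that of 1110028C15Rik, the exon inside was itself in the set and rose too.

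In 92.3% of the intron values that met the read filter, PSI equalled, within 0.02 points, the mean of the reads over the 2 exon-intron borders as a share of that mean plus the reads over the joined exons. In 11 of the 137 introns of the set (8.03%, against 6.46% of introns with a mean PSI of 5 to 95), 1 or more of the 10 libraries differed from that by over 5 points, and how the table set those values is not given in the sources used here. With PSI recomputed from the listed reads, 130 of the 137 met the rule. The 7 that did not, in Sp2, Notch1, Prpf40b, Spr, D14Abb1e, Ube2e1 and Pfas, were all lower in knockout, and apart from Sp2 they are named after their values were seen. Many introns of the set had reads mainly at 1 border. Of the 124 introns with at least 20 border reads, 30 (24.2%) had at least 10 times as many reads at one border as at the other, against 9.93% of introns with a mean PSI of 5 to 95. Borders were within 2 times of each other in 40 (32.3%, against 48.8%). The table does not say which border is the 5′ one. In Zkscan2 the first border had 237 reads and the second 0 over the 6 knockout libraries, and 36 and 0 over the 4 wild-type libraries, with 73 and 124 reads over the joined exons. Pde3b, a phosphodiesterase gene, had 455 and 4 border reads in knockout, and the cadherin gene Cdh8 had 686 and 29. Morf4l2 had the reverse, with 2 and 358. These 3 were chosen after their values were seen. A rise in such a row is a rise in reads at 1 end of the intron, and whether the whole intron was retained was not tested.

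**Figure D4:**
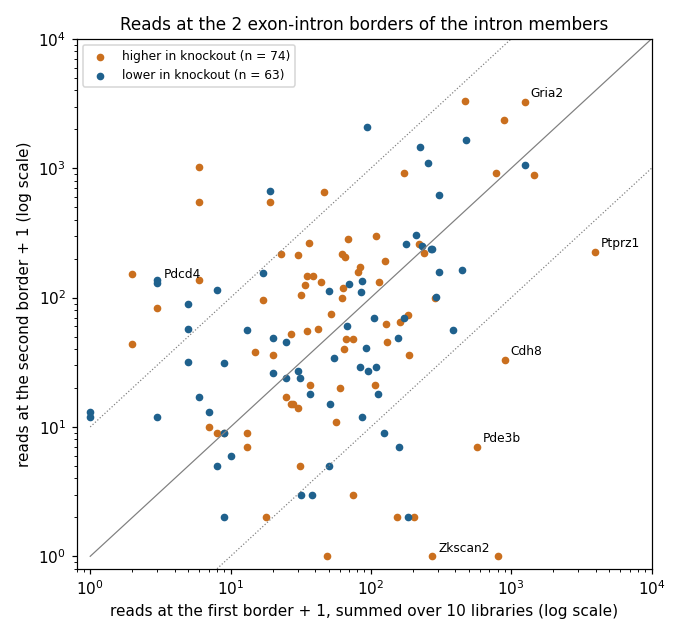
Reads at the first (horizontal) and second (vertical) border of each intron of the set plus 1, summed over the 10 libraries of P1 and P10, on log axes; the solid line marks equal reads and the dotted lines a 10-fold difference. Points beyond the dotted lines, such as Zkscan2, Pde3b, Cdh8 and Ptprz1, are among the introns with reads at mainly 1 border.

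Several genes held more than 1 event. There were 26 genes with at least 2 events, and Rad52, Ttc3 and Usp34 had 4 each. In Rad52, a DNA repair gene, 4 exons rose by 7.86 to 13.6 points, and in Ttc3, a ubiquitin ligase gene, 4 neighbouring exons rose by 5.72 to 10.2. Usp34, a deubiquitinase, had 2 exons that rose by 18.2 and 20.3 points, an intron that rose by 9.57 and a 36 nt exon that fell by 16.2. Members of 1 gene share transcripts, so they are not independent. Among 8 genes with events in both directions were Kif21a, Usp34, Vps24 and Wdr17. Chromosome X held 18 events (5.11%, against 2.84% of rows with a mean PSI of 5 to 95). The 2 on chromosome Y were both in Eif2s3y, which has a close X-linked copy, so its reads may not be assigned to it alone.

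The rule requires a difference of the same sign at both days, so the sizes by day are a description of the chosen events. The median absolute difference was 10.2 points at P1 and 10.3 at P10. It was larger at P10 in 166 events and at P1 in 185, and more than 2 times as large at P10 in 38 and at P1 in 23. Tested on the log odds of inclusion with limma over all 81127 rows with a mean PSI of 1 to 99, 0 of the 352 events passed an adjusted p of 0.05 with 5 points at P1 and 0 at P10 (0.0% of all rows at each day), where 172 and 177 had an unadjusted p under 0.05. Restricted to rows with a mean PSI of 5 to 95, 5 of 327 passed at P1 (0.0232% of all such rows called) and 6 at P10 (0.0261%), all higher in knockout. Those at P1 were in 1110028C15Rik, Neto2, Stxbp5l, Kif21a (108 nt) and Cep120, and those at P10 included Neto2, Stxbp5l, Rbm25 and Kif21a. Since the rule used these libraries, the calls are no separate evidence.

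The change of the genotype difference from P1 to P10 was tested directly, and 0 of 352 events passed (0.0% of all rows, 5 with an unadjusted p under 0.05). The smallest p was that of an intron of Usp34, whose difference was 5.03 points at P1 and 14.1 at P10 (adjusted p = 1.0, limma). The next were a 5′ site of Zfp184 (-11.8 and -21.5 points), an intron of the ribosome biogenesis gene Heatr1 (-11.9 and -3.42) and an exon of the exonuclease gene Xrn1 (3.50 and 9.69), each with an adjusted p of 1.0 in limma. In Sgce the change of the difference was 0.51 on the log2 odds scale (SE 0.67, adjusted p = 1.0). The rule had left out events whose difference changed sign between the days, and it used the same libraries, so these values describe the chosen events only. A p that misses the threshold does not show that the difference was equal at both days.

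**Figure D5:**
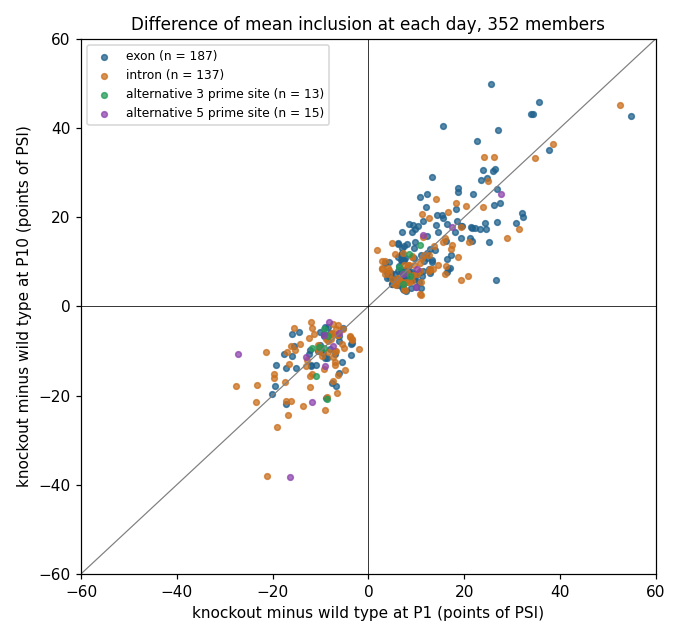
Mean inclusion in knockout minus wild type, in points of PSI, at P1 (horizontal) and P10 (vertical) for the 352 events, coloured by kind of event, with a line of equal difference. Every event lies at the upper right or lower left, as the rule requires, and points fall on both sides of the line (166 larger at P10 and 185 at P1).

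The wild-type P30 libraries were not used by the rule. At least 2 of them had 10 or more reads in 337 events. With a line drawn midway in the gap between genotypes, all P30 values lay on the wild-type side in 144 events, all on the knockout side in 70 and on both sides in 123. All P30 values lay inside the range of the 6 knockout libraries in 32 events and inside that of the 4 wild-type libraries in 27. They lay beyond the wild-type range, away from knockout, in 35. The wild type at P30 was therefore not uniformly on the side of younger wild type, and a narrow gap makes the side easy to change. The rule chose events by the younger wild-type values, so P30 values can lie toward knockout without a change with age. How many did so was not tested.

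From P10 to P30 in wild type, 8 of the 337 events passed the test (2.37%, against 0.833% of all rows), all rising. Among rows with a mean PSI of 5 to 95 it was 12 of 313 (3.83%, against 3.30%), 10 rising and 2 falling, a share near that of the other rows. Libraries under 10 reads were left out of the fit. The strongest was the 12 nt exon of Cadps, at 39.2 and 35.7% in wild type at P10 and 73.2, 70.0 and 75.9% at P30 (log2 odds difference 2.18, SE 0.32, adjusted p = 0.00588, limma). The knockout values of 26.6 to 35.4% lay on the other side of the P10 wild type. A 5′ site of the kinetochore gene Dsn1 rose from 17.4 and 13.3% to 56.9, 58.8 and 66.5% (adjusted p = 0.0106), with knockout at 4.48 to 9.60%. Neurl1a, a ubiquitin ligase gene, rose from 95.6 and 91.0% to 99.6, 99.4 and 98.4% in its 690 nt exon (adjusted p = 0.0342), and knockout had 83.2 to 89.0%. In these 3 events the P30 and knockout values lay on opposite sides of the P10 wild type, whose libraries both comparisons share.

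In the other 5 events, of which 4 are described, the P30 values lay on the knockout side. The rule had placed the P10 wild type below every knockout library in these events, so the direction of their rise is not independent of the choice. Stxbp5l rose from 83.5 and 71.2% to 97.2, 97.2 and 98.0% (adjusted p = 0.0277). Syne1, a nesprin gene, rose from 89.7 and 87.7% to 99.2, 98.3 and 98.3% in its 219 nt exon (adjusted p = 0.0382). Ncoa1, a nuclear receptor coactivator gene, rose from 92.6 and 86.2% to 98.8, 98.7 and 98.98% in its 148 nt exon (adjusted p = 0.0370). The Ern1 intron, in the gene of an endoplasmic reticulum stress sensor, was at 0% in all 4 younger wild-type libraries. It was at 10, 9.09 and 9.68% at P30 (adjusted p = 0.0293), on 11 or more reads per library at P1 and P10. Over the 3 P30 libraries its borders had only 2 and 9 reads, beside 52 over the joined exons. With 20 reads required in each library it was not among the 7 calls. A 121 nt exon of Papolg, a poly(A) polymerase gene, had an adjusted p of 0.00920 but moved by 3.56 points and was not called. From P1 to P10 in wild type 0 events passed (limma, 5 with an unadjusted p under 0.05, 0.138% of all rows called). Without wild-type P10 library 6, 0 of the P30 calls were made, and without library 5 only that of Cadps. Without P30 library 1 or 2 the calls were those of Cadps and Dsn1, and without library 3 those of Cadps, Dsn1, Neurl1a and a Nup107 exon, chosen after its value was seen. With only P10 and P30 in the fit, 0 were made.

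Expression of the genes was not used by the rule, and 306 entries for the 315 genes could be tested. In knockout 0 passed at P1 (limma on log2 of cRPKM plus 1, 0.0356% of all genes called, 19 with an unadjusted p under 0.05) and 0 at P10 (0.00711% of all genes called, 16 with an unadjusted p under 0.05). Without knockout P1 library 15, 0 passed at P1 as well (23 with an unadjusted p under 0.05). The shares of all genes with an unadjusted p under 0.05 were 6.78 and 5.32%. The median log2 difference over these genes was 0.01 at P1 and -0.04 at P10, beside -0.04 and -0.03 over all 14063 genes. Each event had 10 or more reads in every P1 and P10 library, so expression values of 0 there conflict with those reads. Such zeros numbered 48 in knockout P1 library 15, 20 in wild-type P10 library 5 and 15 in knockout P1 library 13. They can widen the spread, so the lack of calls does not show equal expression. With summed reads of exon events as the gene level, 0 of 293 genes passed at each day (limma, 25 and 42 with an unadjusted p under 0.05). Sgce had 9.54 ± 3.05 (SD, n = 2) and 13.1 ± 1.41 cRPKM (n = 3) in wild type and knockout at P1 (adjusted p = 0.782) and 9.04 ± 0.884 and 11.3 ± 5.85 at P10 (adjusted p = 0.981). Epc2 had 34.7 ± 3.35 and 39.9 ± 1.56 at P1 and 34.2 ± 2.33 and 33.9 ± 10.6 at P10. Kif21a had 29.0 ± 1.39 and 30.8 ± 5.07 at P1 and 26.6 ± 3.03 and 21.5 ± 5.35 at P10. None of these 6 differences passed the test. The libraries of the genotypes overlapped for Kif21a at both days and for Sgce and Epc2 at P10. At P1 the knockout libraries lay above wild type for Epc2 (38.1 to 41.1 against 32.3 and 37.1) and for Sgce (11.9 to 14.7 against 7.39 and 11.7).

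Between P10 and P30 in wild type, 11 of the 306 rose and 22 fell (10.8%, against 14.7% of all genes). With the libraries scaled to 1 median, 18 rose and 21 fell. Neurl1a rose from 10.2 to 33.3 cRPKM (log2 difference 1.67, SE 0.25, adjusted p = 0.000738). Fam60a fell from 14.4 to 0.667 (fell by 3.26 on the log2 scale, SE 0.38, adjusted p = 0.000150).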

How the data were processed

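The authors deposited 2 tables for 13 libraries. The splicing table gives percent inclusion with a quality field holding reads for and against inclusion, and the expression table gives cRPKM, an RPKM value corrected for mappable length, per the file headers. Reads were handled with FastQC and Trimmomatic and the build was mm9, per the submitters' processing notes. The aligner and table program: not given in the sources used here. The events, gene lists and tests were chosen with earlier results of these data known.

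Splicing was tested as log2((inclusion reads + 0.5)/(exclusion reads + 0.5)) and expression as log2(cRPKM + 1) with limma 3.58.1 in R 4.3.3. Genes whose mean was under 1 cRPKM in all groups were left out. Both fits held all 5 groups, and p-values were adjusted by Benjamini-Hochberg over all rows or genes tested. An event was called at an adjusted p under 0.05 and 5 points. With 2 wild-type libraries at P1 and at P10, the spread is estimated mainly from the prior and the remaining groups. Both fits were run on simulated data with large planted changes, which does not show how they perform on these libraries. Exon sequences came from GENCODE M21 transcripts, since no mm9 genome was used here, with a match of the exon length and at least 1 flanking intron length. Of 22667 genes, 1114 had no expression value. Depth beyond the reads in the table is unknown.

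Named events follow a rule: those of Sgce, Epc2 and Kif21a, the 10 largest rises and falls, exons of 27 nt or less, the 5 smallest p for the change between days and for P30, the 5 events on either side of the 5 point limit, genes on a list, and genes called in expression. Others (Neto2, Cep120, Rbm25, Rad52, Ttc3, Ralyl, Zfp711 and the Eif2s3y events, the other introns named for their borders, and the genes named for P30 beyond the 5 smallest p) were chosen after their values were seen. A few members are left out of the text but remain in all counts. Alternatives were other read minimums, pseudocounts, filters, scalings and fits, and leaving out each library.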

Additional observations from a re-analysis of the deposited data

How the results depend on the processing

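No paired analysis was possible because the libraries of different groups share no number in the labels. The rule kept 352 events, 272 with 20 reads in each library, 191 with 10 points, and from 460 to 760 with 1 library left out, since fewer libraries have to separate. Without wild-type P1 library 8 or 9 it kept 758 or 711, without wild-type P10 library 5 or 6 it kept 580 or 760, and without knockout P10 library 10 it kept 666. In the splicing fits, where a lone library of a group is assumed to vary like the other groups, calls at P1 went from 0 to 5 and at P10 from 0 to 6 with a mean PSI of 5 to 95, and to 1 (Stxbp5l) at P10 with 1 read added to each side. With 1 library left out they ranged from 0 to 1 at each day (at P1 Papolg, without knockout library 13, and at P10 without knockout library 12). Calls for P30 against P10 went from 8 to 4 with 10 points, to 5 without a trend in the prior, to 0 with only those groups, and to between 0 and 4 with 1 library left out. The Cadps call was lost only with those groups alone (adjusted p = 0.0850) and without wild-type P10 library 6 (adjusted p = 0.114). Epc2, not called for P30, changed sign without wild-type P10 library 5 (adjusted p = 0.962) and without P30 library 1 or 2 (adjusted p = 0.996 and 0.997). The number of events with P30 values on both sides of the gap fell from 123 to between 81 and 82 with 1 P30 library left out. Such a number cannot rise when a library is left out, since fewer values have to agree. Gene expression calls in knockout ranged from 0 to 1 at P1 (Dhrsx without library 14) and at P10 (Uchl5 without wild-type library 6), and P30 calls went from 33 to 60 with only those groups and to 120 with the summed reads of exon events as the gene level. The cause of the changes in calls was not tested. The exon share was 51.4% with 1 row per gene. With intron PSI recomputed from the listed reads, a setting added after the data were seen, the rule kept 351 events, 345 of them among the 352. Of 366 alternatives over 36 results, 288 kept their side of the threshold and direction or stayed within 1.5 times.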

Other observations

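Most genes whose splicing was linked to Sam68 in earlier work held no event of the set. Of 18 listed genes, 17 had a row that met the read filter and 2, among them Sgce, held an event, which is 11.8% against 2.61% of the 12090 genes with such a row. The list was chosen with results known. The 27 nt exon of Clasp2, a microtubule plus-end protein gene, had a mean of 49.8% in wild type and 37.2% in knockout at P1 and P10, and a 66 nt exon of the kinesin partner Kifap3 32.4 and 22.6%, but their libraries overlapped. The 12 nt exon of Nrxn3 had 21.2 and 14.003%, and introns of Nrxn2 and Mtor had 58.8 and 44.3% and 24.9 and 15.5%, also with overlap. The lists of STAR family proteins, neuronal splicing regulators and cell type markers held 0 events of the set. They had few genes with a row that met the read filter (4, 23 and from 1 to 8 per cell type). At a share of 2.61% over all genes, 0 events in lists of this size is not particular to them.

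Among the genes of the set Ralyl had the smallest p for expression at P1, with a log2 difference of -1.46 in knockout (limma adjusted p = 0.264), and its 2 introns in the set rose by 9.37 and 6.26 points. The related gene Khdrbs2 had 14.04 ± 0.283 cRPKM (SD, n = 2) in wild type and 34.7 ± 4.52 (n = 3) in knockout at P1, and 8.24 ± 2.51 and 18.9 ± 5.48 at P10.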
